A study of Homo sapiens with 9 samples.

Results

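Serine synthesis and the folate-bound one-carbon pathway were examined through 9 genes, PHGDH, PSAT1, PSPH, SHMT1, SHMT2, MTHFD1, MTHFD2, MTHFD1L and ALDH1L2. They were taken by gene symbol from the 27111 genes listed for each library, and all 9 were expressed highly enough to be tested among 17108 genes. The libraries came from PC3, an established human prostate cancer cell line, transduced with a lentiviral pSIN vector and selected with puromycin. Empty cells carried the vector without insert, NF-YAl cells carried the murine long splice isoform of NF-YA, and NF-YAs cells carried the murine short isoform. All 3 lines also kept their own human NFYA gene, and each line was a stably transduced culture. The cells were grown for 7 days as multicellular tumor spheroids (MTSs) in medium with Matrigel, and 18 MTSs were pooled for each library, with 3 libraries per line named by the letters A, B and C or, in NF-YAl, A, B and D.

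PHGDH, PSAT1 and PSPH turn a glycolytic intermediate into serine in 3 successive cytosolic reactions. SHMT1 in the cytosol and SHMT2 in mitochondria then split serine into glycine and a one-carbon unit that is loaded on tetrahydrofolate. MTHFD2, MTHFD1L and ALDH1L2 oxidize or release that unit in mitochondria, while MTHFD1 handles it in the cytosol, where it feeds purine, thymidylate and methionine synthesis. Many of these genes are known targets of ATF4, a transcription factor of the amino acid response, and the pathway is often active in proliferating tumor cells. NF-YA is the DNA-binding subunit of NF-Y, a trimeric factor that binds the CCAAT box, and exon skipping gives its short isoform.

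Because NF-Y binds CCAAT, the RefSeq promoters of the members were searched for it. The promoter table, on the GRCh38.p14 build, held 6 of the 9 genes, namely PHGDH, PSAT1, SHMT1, MTHFD1, MTHFD2 and MTHFD1L. Each window covers 250 bases before and 50 bases after an annotated start, and CCAAT was sought on both strands, its reverse complement being ATTGG. All 6 genes had at least 1 match, against 42.1% of the 15842 protein-coding genes and 39.7% of all 27305 genes in the table. The upstream 250 bases are shown for the genes with an entry that passed the test in some comparison (PSAT1, PHGDH and MTHFD1) and for MTHFD2, the mitochondrial gene whose call turned on 1 library. Capitals mark CCAAT, and each sequence reads 5′ to 3′ on the plus strand, the strand of the gene.
PSAT1, chr9:78296875-78297124: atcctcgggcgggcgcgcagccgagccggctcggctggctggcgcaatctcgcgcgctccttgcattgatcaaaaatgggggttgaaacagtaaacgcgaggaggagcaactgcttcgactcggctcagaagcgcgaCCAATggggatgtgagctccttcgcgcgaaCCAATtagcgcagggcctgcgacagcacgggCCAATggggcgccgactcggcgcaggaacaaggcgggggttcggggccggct
PHGDH, chr1:119711684-119711933: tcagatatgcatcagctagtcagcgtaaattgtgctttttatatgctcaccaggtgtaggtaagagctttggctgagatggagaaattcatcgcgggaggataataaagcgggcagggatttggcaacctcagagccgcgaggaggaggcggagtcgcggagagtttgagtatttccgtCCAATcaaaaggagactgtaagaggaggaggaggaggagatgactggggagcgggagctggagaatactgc
MTHFD1, chr14:64388103-64388352: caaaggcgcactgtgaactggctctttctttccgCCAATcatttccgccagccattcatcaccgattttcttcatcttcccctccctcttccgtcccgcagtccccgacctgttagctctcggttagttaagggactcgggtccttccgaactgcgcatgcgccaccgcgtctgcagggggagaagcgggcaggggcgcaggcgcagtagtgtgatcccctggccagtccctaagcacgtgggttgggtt
MTHFD2, chr2:74198365-74198614: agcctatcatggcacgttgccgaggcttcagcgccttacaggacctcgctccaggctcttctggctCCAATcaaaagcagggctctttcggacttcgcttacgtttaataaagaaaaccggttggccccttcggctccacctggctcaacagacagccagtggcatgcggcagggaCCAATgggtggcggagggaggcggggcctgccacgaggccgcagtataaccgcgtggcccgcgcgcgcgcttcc
PSAT1 has 3 CCAAT boxes, whose first bases lie 113, 83 and 52 bases upstream of the start, and 4.72% of protein-coding genes had 3 or more matches in a window. PHGDH has 1 at 71 bases upstream, MTHFD2 has 1 at 184 and 1 at 74, and MTHFD1 has 1 at 216 with an ATTGG 36 bases into the transcript. SHMT1, on the minus strand, has CCAAT 76 and ATTGG 25 bases upstream. MTHFD1L has 4 annotated starts, and the window of the most upstream one has CCAAT 40 bases before it. The same windows were searched for TGATGCAA and its reverse complement TTGCATCA, one form of the composite element bound by ATF4 with C/EBP proteins. Of the 6 genes, MTHFD1L held it, 25 bases after its most upstream start, against 0.903% of protein-coding genes. Such matches describe the letters in these windows and do not show binding.

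Library depth ranged from 18076979 to 27163976 expected counts, with 20072 to 20717 genes detected. Reads of the transgene counted on human NFYA as far as they align to it. NFYA stood at 89.3, 96.7 and 89.4 CPM (depth-scaled counts, with TMM factors) in Empty A, B and C. It stood at 286.9, 383.1 and 353.3 CPM in NF-YAl A, B and D and at 264.5, 263.3 and 254.0 CPM in NF-YAs A, B and C. Both transduced lines were thus above every Empty library (log2FC 1.89 ± 0.11 and 1.51 ± 0.11, SE). Of 6 markers of PC3 cells, KRT8, KRT18, KRT19 and VIM averaged at least 113.7 CPM in every line, while EPCAM and CDH1 averaged at most 7.45 CPM. The keratins fell in both lines, KRT8 by log2FC −1.33 and −0.78 and KRT19 by −0.71 and −0.79 in NF-YAl and NF-YAs, and CDH1 fell in NF-YAs by −1.33. EPCAM rose in both (2.16 and 1.46) and VIM in NF-YAs (0.55). Their part in the results below was not tested. CD3E and KLK3, markers of T cells and of differentiated prostate epithelium, had at most 2 counts in a library.

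Members differed widely in abundance. On the TPM scale, which RSEM corrects for length and depth, Empty MTSs had most of SHMT2, at 81.4, 68.0 and 65.1 TPM in A, B and C, and of MTHFD1, at 71.5, 61.6 and 49.2 TPM. MTHFD2 (42.6 ± 7.2 TPM, mean ± SD, n = 3), PHGDH (36.5 ± 7.9), PSPH (29.9 ± 6.3) and PSAT1 (21.3 ± 3.5) followed. MTHFD1L (10.8 ± 2.3 TPM) and SHMT1 (8.86 ± 1.84) were lower, and ALDH1L2 was by far the least abundant at 0.37 ± 0.13 TPM. SHMT2 ranked at percentile 94.3 and ALDH1L2 at percentile 25.8 of the 21840 genes above 0 TPM in Empty. The order was the same within all 3 Empty libraries, but the ranges of neighbours overlapped across libraries, except between PSAT1 and MTHFD1L and between SHMT1 and ALDH1L2.

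In NF-YAs MTSs, MTHFD1 took the first place, at 92.9, 80.9 and 83.7 TPM in A, B and C, above SHMT2 at 78.6, 63.5 and 67.5 TPM in the same libraries. In NF-YAl A and B the pair was nearly level, SHMT2 at 53.1 and 49.7 TPM and MTHFD1 at 53.2 and 49.1 TPM. TPM of every member was higher in NF-YAl D than in NF-YAl A and B, as in MTHFD2 at 86.1 TPM against 30.0 and 29.0 in A and B. In that library RN7SL2, an abundant small cytoplasmic RNA, took 4.74% of TPM, against 10.8 to 16.3% in the other 8 libraries. The part of RN7SL2 in the higher TPM of the members was not tested. On the scale of TMM-scaled CPM, on which the tests below rest, not every member was higher in NF-YAl D.

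Compared with Empty, NF-YAl MTSs had lower levels of 2 serine synthesis enzymes and of the mitochondrial enzyme that splits serine. PSAT1, PSPH and SHMT2 fell (adjusted p under 0.01, edgeR), by 24.4%, 28.2% and 26.6%, and 0 members rose. Over all tested genes 9.54% fell and 10% rose. None of the 9 was a differentially expressed gene (DEG) by the fold limit of |log2FC| above 1, which 8.27% of tested genes passed, and 6 of 9 had an unadjusted p under 0.05, against 42.2% of tested genes. The median log2FC was −0.25 over the members, with 7 of 9 lower, and 0.01 over all tested genes. For 6 members the libraries of both lines were fully separated, PHGDH, PSAT1, PSPH, SHMT2 and MTHFD1 being below and ALDH1L2 above, against 42.4% of tested genes.

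**Figure D1:**
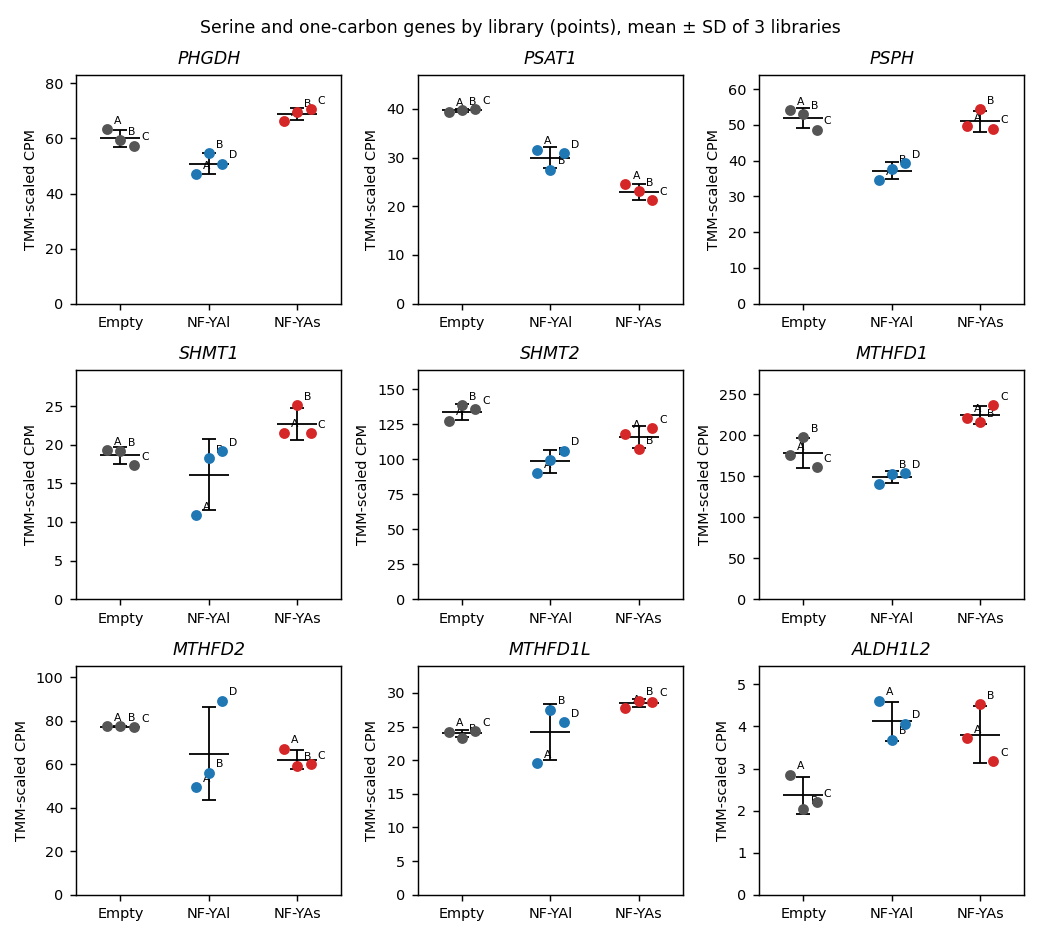
TMM-scaled CPM of the 9 genes in each library (points, with the library's letter), with the mean and SD of the 3 libraries per line (bars). PSAT1 steps down from Empty (39.4 to 39.9 CPM) to NF-YAl (27.5 to 31.6) to NF-YAs (21.2 to 24.6), MTHFD1 is highest in NF-YAs, and MTHFD2 has NF-YAl D far from NF-YAl A and B.

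PSPH, the phosphatase that completes serine synthesis, was measured at 54.1, 52.9 and 48.7 CPM in Empty A, B and C and at 34.6, 37.8 and 39.3 CPM in NF-YAl A, B and D. All NF-YAl libraries lay below all Empty ones, with a log2FC of −0.48 ± 0.09 (SE, edgeR adjusted p = 0.00203, 95% interval −0.68 to −0.28). Its levels in NF-YAs, 49.7, 54.3 and 48.9 CPM, overlapped those in Empty (log2FC −0.03 ± 0.09). Without Empty A or Empty B the adjusted p for NF-YAl was 0.0120 or 0.0108, with log2FC of −0.44 and −0.46. PSPH counts were fractional in all 9 libraries, so part of its reads was shared with other genes by RSEM.

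PSAT1, the aminotransferase of the middle step, fell in both lines. It was at 39.4, 39.8 and 39.9 CPM in Empty A, B and C, at 31.6, 27.5 and 30.9 in NF-YAl A, B and D, and at 24.6, 23.1 and 21.2 in NF-YAs A, B and C. The 3 lines did not overlap one another. In NF-YAs it fell by 42.1% (log2FC −0.79 ± 0.10, adjusted p = 8.6e-05), and this call held without any single library (log2FC −0.83 to −0.74). In NF-YAl the fall was smaller, at log2FC −0.40 ± 0.10 with adjusted p = 0.00776. That call was kept in 2 of the 9 fits without 1 library, where NF-YAl A or NF-YAl D was left out. Adjusted p was 0.0251, 0.0286 and 0.0339 without Empty A, B and C, 0.0341 without NF-YAl B, and 0.0114, 0.0150 and 0.0127 without NF-YAs A, B and C. The lines themselves differed by a log2FC of 0.38 ± 0.10 (NF-YAl above NF-YAs), which did not pass the threshold at adjusted p = 0.0161.

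PHGDH, the first enzyme of the route, differed between the 2 transduced lines. It was at 63.3, 59.4 and 57.4 CPM in Empty A, B and C, at 47.0, 54.7 and 50.8 in NF-YAl A, B and D, and at 66.2, 69.4 and 70.5 in NF-YAs A, B and C. Neither comparison with Empty passed, at log2FC −0.24 ± 0.09 (adjusted p = 0.0620) for NF-YAl and 0.19 ± 0.09 (adjusted p = 0.115) for NF-YAs. Set against each other, PHGDH was lower in NF-YAl by log2FC −0.43 ± 0.09 (adjusted p = 0.00541), with no overlap of libraries. Leaving out Empty B or C, NF-YAl A, or NF-YAs A, B or C gave adjusted p of 0.0101, 0.0115, 0.0106, 0.0142, 0.0274 and 0.0325, in that order, with log2FC of −0.46 to −0.38.

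SHMT2, the mitochondrial serine hydroxymethyltransferase, was at 127.5, 138.6 and 135.6 CPM in Empty A, B and C. It was at 89.7, 99.2 and 105.9 CPM in NF-YAl A, B and D and at 118.2, 107.2 and 122.2 CPM in NF-YAs A, B and C. Every Empty library was above every library of both transduced lines, and NF-YAl was the lowest. SHMT2 fell in NF-YAl by log2FC −0.45 ± 0.10 (adjusted p = 0.00371), and adjusted p was 0.0188, 0.0195 and 0.0127 without Empty B, Empty C and NF-YAl B. In NF-YAs the log2FC was −0.21 ± 0.10 with adjusted p = 0.108.

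SHMT1, its cytosolic counterpart, was at 19.3, 19.2 and 17.4 CPM in Empty A, B and C, at 10.9, 18.3 and 19.2 in NF-YAl A, B and D, and at 21.5, 25.1 and 21.5 in NF-YAs A, B and C. NF-YAl A lay far below the other 2 libraries of its line, which overlapped Empty. No comparison passed for SHMT1, with log2FC of −0.20 ± 0.18 for NF-YAl and 0.29 ± 0.18 for NF-YAs. Without NF-YAl A, the former was 0.01. SHMT1 has an exon that overlaps SMCR8 on the opposite strand, and its counts were fractional in all but 3 of 9 libraries.

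**Figure D2:**
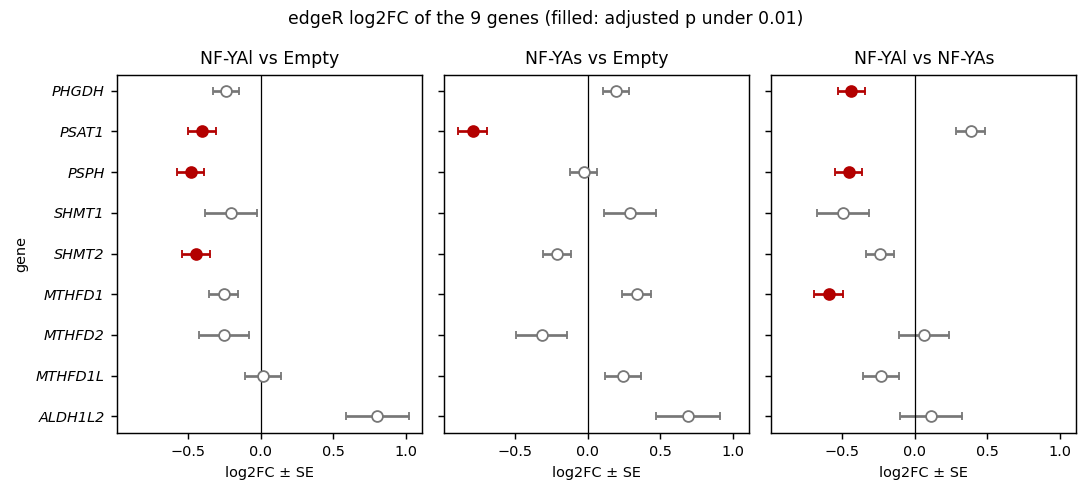
log2FC (x axis, points with SE bars) of the 9 genes in the 3 comparisons, from edgeR, with filled points at adjusted p under 0.01. PSAT1 is the one filled point of NF-YAs vs Empty (−0.79), while PHGDH, PSPH and MTHFD1 are filled between the lines, all lower in NF-YAl.

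MTHFD1, the trifunctional cytosolic enzyme, was the member that set the lines apart most. It was at 175.8, 197.5 and 160.8 CPM in Empty A, B and C and at 141.1, 152.9 and 153.8 in NF-YAl A, B and D. In NF-YAs A, B and C it was at 221.4, 215.8 and 236.9 CPM, above all 6 other libraries. NF-YAl was lower than NF-YAs by log2FC −0.59 ± 0.10 (adjusted p = 0.00138, 95% interval −0.80 to −0.38), and without NF-YAs C adjusted p was 0.0116 with a log2FC of −0.55. Against Empty the log2FC was 0.34 ± 0.10 in NF-YAs (adjusted p = 0.0181) and −0.25 ± 0.10 in NF-YAl (adjusted p = 0.0659). Leaving NF-YAl A out of the shared fit brought the former to adjusted p = 0.00892, and DESeq2 gave 0.00520. Its counts were fractional in 9 of 9 libraries, and ZBTB25 overlaps it on the opposite strand.

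MTHFD2, the mitochondrial dehydrogenase and cyclohydrolase, was at 77.6, 77.4 and 76.98 CPM in Empty A, B and C, and at 67.1, 59.3 and 60.1 in NF-YAs A, B and C. In NF-YAl A and B it was at 49.4 and 56.1 CPM, but at 89.3 CPM in D, the highest of all 9 libraries. With D included, log2FC for NF-YAl was −0.25 ± 0.17 (adjusted p = 0.303), and without it −0.55 ± 0.09 (adjusted p = 0.000590). The wide spread of NF-YAl also entered the comparison of NF-YAs with Empty through the shared fit. There the log2FC was −0.32 ± 0.17 (adjusted p = 0.181), and −0.32 ± 0.08 (adjusted p = 0.00778) without NF-YAl D. All NF-YAs libraries lay below all Empty libraries.

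MTHFD1L, the mitochondrial enzyme that frees formate, was at 24.2, 23.4 and 24.3 CPM in Empty A, B and C, at 19.5, 27.5 and 25.6 in NF-YAl A, B and D, and at 27.7, 28.9 and 28.7 in NF-YAs A, B and C. The NF-YAs libraries were the highest, though by a small margin over NF-YAl B, and no comparison passed (log2FC 0.25 ± 0.12, adjusted p = 0.143, for NF-YAs vs Empty). For NF-YAl vs Empty the interval of the log2FC was −0.25 to 0.29.

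ALDH1L2, the mitochondrial formyltetrahydrofolate dehydrogenase, had low counts, from 50.5 to 98.8 in a library. It was at 2.85, 2.03 and 2.20 CPM in Empty A, B and C, at 4.62, 3.68 and 4.07 in NF-YAl A, B and D, and at 3.72, 4.53 and 3.18 in NF-YAs A, B and C. Both lines lay above Empty without overlap. Neither passed in edgeR, at log2FC 0.80 ± 0.21 (adjusted p = 0.0133) for NF-YAl and 0.69 ± 0.22 (adjusted p = 0.0265) for NF-YAs, and DESeq2 gave 0.00531 for the former.

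RSEM also divided the reads of each gene among its RefSeq transcripts, and for ALDH1L2 this division differed between the lines. In Empty A, B and C, 24.5, 50.5 and 52.1 counts were given to a non-coding transcript of 7491 bases and 43.2, 0 and 3.57 counts to the coding transcript of 7539 bases. In the 6 transduced libraries the coding transcript received 68.9 to 98.8 counts and the non-coding one at most 0.06. The non-coding share of TPM was therefore 76.7 ± 35.0% (SD, n = 3) for Empty, while NF-YAl averaged 0.02% and NF-YAs 0%. The groups did not overlap, and the exact two-sided permutation test gave p = 0.1, the smallest it can give with 3 against 3, or 0.533 adjusted over 48 tests of member transcripts. The transcripts are close in length, the shares are estimates from under 100 reads, and WASHC4 overlaps the gene on the opposite strand. ALDH1L2 counts were whole in 0 of 9 libraries, so part of its reads was shared with other genes by RSEM.

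**Figure D3:**
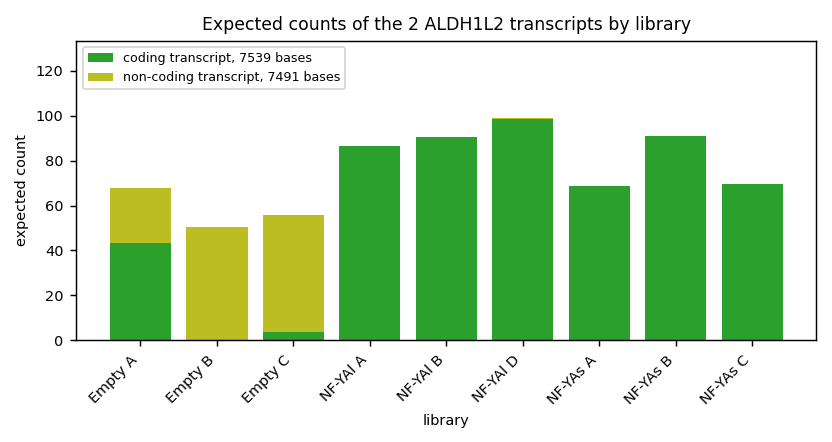
Expected counts (y axis) that RSEM assigned to the coding and the non-coding transcript of ALDH1L2 in each library (stacked bars). The non-coding transcript holds 24.5 to 52.1 counts in the Empty libraries and at most 0.06 in the others.

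Transcript shares of the other members moved less. For SHMT2, the transcript of 2256 bases took 16.9 ± 3.3% of TPM in Empty libraries, 14.1 ± 6.4% with NF-YAl and 6.03 ± 1.84% with NF-YAs. That of 2357 bases took 8.41 ± 0.31%, 7.84 ± 3.03% and 3.76 ± 1.63%. Both were lower in every NF-YAs library than in any Empty one (exact permutation p = 0.1, adjusted p = 0.533). At the same p, the transcript of 2295 bases took more in NF-YAs (49.0 to 66.4%) than in Empty (43.4 to 48.6%), and that of 2149 bases took less in NF-YAl (14.8 ± 2.7%) than in Empty (21.4 ± 1.2%). The non-coding transcript of MTHFD2 took 10.4 ± 3.0%, 13.1 ± 0.8% and 12.1 ± 2.8%.

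NF-YAs MTSs had 1 member, PSAT1, that passed against Empty, where 10.5% of all tested genes fell and 12.1% rose. No member was a DEG by the fold limit, which 9.34% of genes passed, and 4 of 9 had an unadjusted p under 0.05, against 45% of tested genes. The members split in direction, 5 higher and 4 lower, with a median log2FC of 0.19 against −0.00262 over all genes. Libraries did not overlap for 8 members, all but PSPH, against 56.4% of tested genes.

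Set directly against each other, the lines differed in PHGDH, PSPH and MTHFD1, all lower in NF-YAl, and 0 members were higher in NF-YAl past the threshold. Of all tested genes 6.25% were lower and 4.70% higher in NF-YAl. PSPH was lower by log2FC −0.45 ± 0.09 (adjusted p = 0.00497). Without NF-YAl B, or NF-YAs A, B or C, its adjusted p was 0.0143, 0.0152, 0.0324 and 0.0187. None was a DEG by the fold limit (4.61% of tested genes), and 6 of 9 had an unadjusted p under 0.05, against 36.5% of tested genes. The median log2FC of the members was −0.24, with 6 of 9 lower, against 0.02 over all genes, and 7 of 9 did not overlap, against 39.5% of tested genes. Both comparisons with Empty share the Empty libraries, so the values of each member are given side by side above.

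The mRNA ratio of mitochondrial to cytosolic folate enzymes, with all transcripts of a gene summed, was lower in NF-YAs. The summed TPM of SHMT2, MTHFD2, MTHFD1L and ALDH1L2, divided by that of SHMT1 and MTHFD1, was 1.77, 1.67 and 1.995 in Empty A, B and C, 1.59, 1.59 and 1.93 in NF-YAl A, B and D, and 1.33, 1.22 and 1.22 in NF-YAs A, B and C. All NF-YAs libraries were below all others, and Empty and NF-YAl overlapped. Computed from expected counts the means were 1.22, 1.16 and 0.850. As a ratio within a library it shows unequal change of the 2 sums, here MTHFD1 being the largest term of the cytosolic one. The ratio of SHMT2 to SHMT1 was 8.16 ± 0.69, 7.21 ± 1.79 and 5.85 ± 0.86 for Empty, NF-YAl and NF-YAs.

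**Figure D4:**
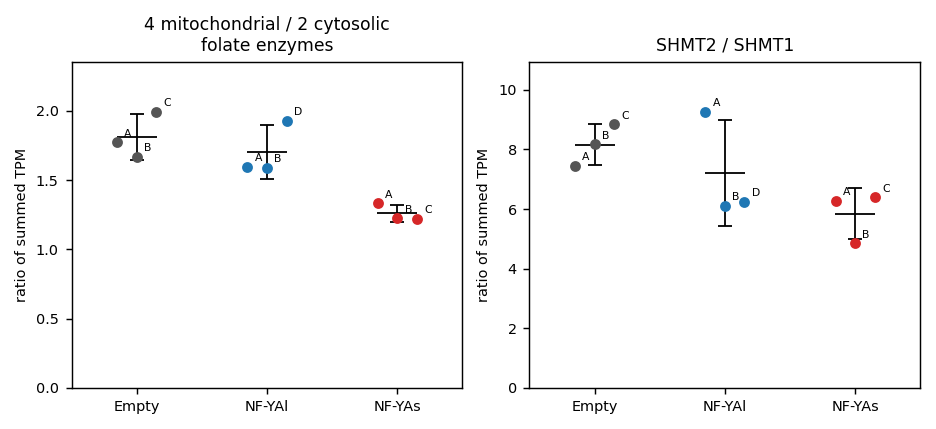
Ratio of the summed TPM of the 4 mitochondrial to the 2 cytosolic folate enzymes (left) and of SHMT2 to SHMT1 (right) in each library (points), with mean and SD per line. On the left the NF-YAs libraries (1.22 to 1.33) lie below all others (1.59 to 1.995).

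Around the pathway, other genes were counted by list, to be read against 19.6% of all tested genes called in NF-YAl and 22.6% in NF-YAs. In the ATF4 and amino acid response list of 20 tested genes, 7 fell and 0 rose in NF-YAl, and 8 fell and 2 rose in NF-YAs, with median log2FC of −0.31 and −0.44. The stress factor DDIT3 averaged 41.3 ± 6.4 CPM in Empty libraries, 22.8 ± 3.4 with NF-YAl and 19.4 ± 1.7 with NF-YAs (log2FC −0.86 ± 0.14 and −1.09 ± 0.14, adjusted p = 0.000652 and 0.000111). TRIB3, a pseudokinase induced with it, changed by −0.75 ± 0.13 and −1.06 ± 0.13, and AARS, the alanyl-tRNA synthetase, by −1.04 ± 0.12 and −0.81 ± 0.12. These calls held without any single library. ATF4 mRNA itself had log2FC of −0.29 and −0.42, which did not pass (adjusted p = 0.0979 and 0.0216).

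Within that list the lines differed in ASNS and WARS. ASNS, the asparagine synthetase, was at 46.9, 48.0 and 48.2 CPM in Empty A, B and C, at 41.7, 46.9 and 43.8 in NF-YAl A, B and D, and at 29.6, 31.1 and 30.0 in NF-YAs A, B and C. It was higher in NF-YAl than in NF-YAs by log2FC 0.54 ± 0.09 (adjusted p = 0.00109), the same direction as PSAT1. WARS, the tryptophanyl-tRNA synthetase, was lower in NF-YAl by −0.89 ± 0.10 (adjusted p = 0.000130). ATF3 was at 19.2, 10.3 and 15.1 CPM in Empty and 6.25, 2.24 and 2.53 in NF-YAs (log2FC −2.03 ± 0.48, adjusted p = 0.00603), a call kept in 5 of 9 fits that left out 1 library and lost without Empty A, Empty C, NF-YAs B or NF-YAs C (adjusted p up to 0.0318).

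**Figure D5:**
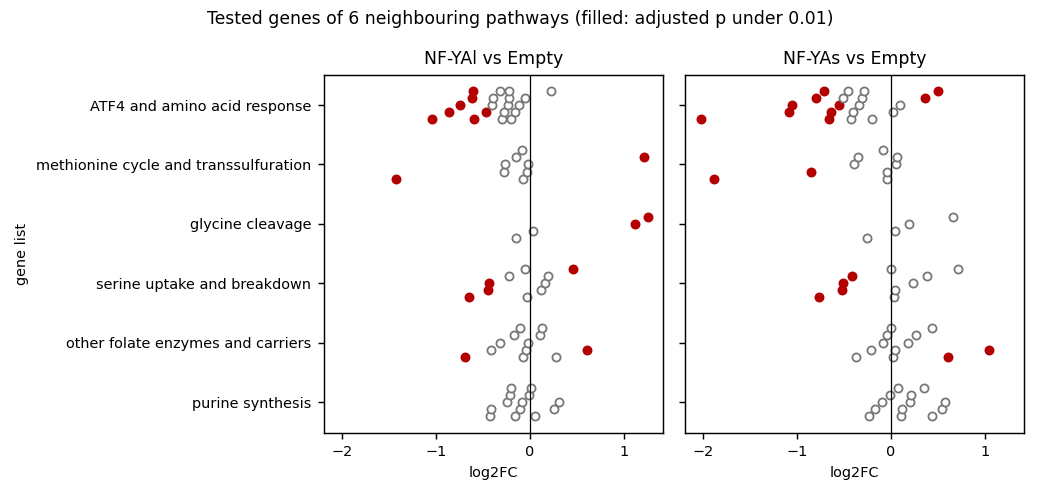
log2FC (x axis) of each tested gene in 6 lists of neighbouring pathways, NF-YAl vs Empty and NF-YAs vs Empty, with filled points at adjusted p under 0.01 and vertical offsets for legibility. Filled points of the ATF4 list lie mostly below 0 in both, and the glycine cleavage list has 2 filled points above 1 in NF-YAl.

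Transsulfuration, which uses serine to make cysteine, was split. In the methionine cycle and transsulfuration list, 1 of 9 tested genes rose and 1 fell in NF-YAl, and 0 rose and 2 fell in NF-YAs. CBS, which joins serine to homocysteine, was at 11.6, 10.9 and 9.45 CPM in Empty A, B and C and at 24.6, 28.1 and 21.5 in NF-YAl A, B and D. In NF-YAs it was at 9.05, 9.75 and 11.3 CPM, within reach of Empty, and it rose in NF-YAl by log2FC 1.22 ± 0.14 over Empty (adjusted p = 6.3e-05) and 1.3 ± 0.14 over NF-YAs. CTH, which releases cysteine in the next step, was at 11.4, 12.6 and 16.6 CPM in Empty and fell in both lines, to 4.93, 4.33 and 5.79 CPM in NF-YAl and 4.20, 2.89 and 3.92 CPM in NF-YAs (log2FC −1.43 ± 0.20 and −1.88 ± 0.20). MAT2A, which makes S-adenosylmethionine, fell in NF-YAs by −0.85 ± 0.11 (adjusted p = 0.000125) and was 0.58 ± 0.11 higher in NF-YAl than in NF-YAs, the latter with adjusted p = 0.0258 without NF-YAs B and also lost without NF-YAs C.

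Glycine cleavage gave 2 calls of 4 tested genes in NF-YAl, both higher, and 0 in NF-YAs. GLDC, the decarboxylase of the glycine cleavage system, was at 2.64, 3.38 and 3.50 CPM in Empty and 4.77, 8.96 and 8.96 in NF-YAl (log2FC 1.26 ± 0.24, adjusted p = 0.00194, and 0.0113 and 0.0107 without Empty A and NF-YAl B). AMT, of the same system, had log2FC 1.12 ± 0.26 (adjusted p = 0.00635), kept only without NF-YAl D, NF-YAs B or NF-YAs C among fits that left out 1 library (adjusted p up to 0.0298). In the serine uptake and breakdown list, 1 of 10 genes rose and 3 fell in NF-YAl, and 0 rose and 4 fell in NF-YAs. SLC38A2, a neutral amino acid transporter, fell in NF-YAs by −0.77 ± 0.16 (adjusted p up to 0.0168 without Empty C, NF-YAs B or NF-YAs C), and SLC38A1 rose in NF-YAl by 0.46 ± 0.10 (up to 0.0245 without Empty B or C). SLC1A5, SLC6A9 and SFXN1, the last a mitochondrial serine carrier, fell in both lines by log2FC of −0.65 to −0.41, and each of these calls was lost without Empty C, among other libraries, with adjusted p up to 0.0459.

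Pathways that use one-carbon units were counted in the same way. Of 13 purine synthesis genes, 0 passed against Empty in either line, and PFAS was lower in NF-YAl than in NF-YAs by −0.60 ± 0.12 (adjusted p = 0.00514, up to 0.0308 without NF-YAl A or any NF-YAs library). Of 12 other folate genes, 1 rose and 1 fell in NF-YAl and 2 rose in NF-YAs. TYMS, the thymidylate synthase, fell in NF-YAl by −0.69 ± 0.16 (adjusted p = 0.00591, lost without any Empty library, NF-YAl B, NF-YAs A or NF-YAs B, up to 0.0257). SLC46A1, a folate carrier, rose there by 0.60 ± 0.12 (lost without any Empty library or NF-YAl B, adjusted p up to 0.0154). SLC19A1, the reduced folate carrier, rose in NF-YAs by 0.61 ± 0.14 (lost without Empty A, Empty C, NF-YAs B or NF-YAs C, up to 0.0271), as did GGH, which trims folate polyglutamates, by 1.04 ± 0.20 (lost without Empty A or C, up to 0.0110). ALDH1L1, MAT1A and BHMT had too few counts to be tested.

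The genes most like the 9 members over the libraries were KIF4A (r = 0.99), AEN (r = 0.99) and UBE2S (r = 0.99), found by the Pearson correlation of log2 CPM with the members' mean z-score across 9 libraries among 12117 genes. This is a description of the best of many, over libraries that fall into 3 lines. The mean z-score was lowest in NF-YAl A (−1.23) and highest in NF-YAs B (0.47), and all NF-YAl libraries were below all others. In bulk MTSs, a smaller share of cells expressing a gene and less RNA per cell cannot be told apart.

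On the build of the deposited files, GRCh37, GENCODE places PSAT1 on chromosome 9 from 80912041 to 80945009, PSPH on chromosome 7 from 56078744 to 56119297 (minus strand) and PHGDH on chromosome 1 from 120191034 to 120286841. SHMT2 spans 57623356 to 57628718 and ALDH1L2 105413562 to 105501421 (minus strand), both on chromosome 12, and MTHFD1 spans 64854749 to 64930175 on chromosome 14. MTHFD2 lies on chromosome 2 from 74413299 to 74444692, MTHFD1L on chromosome 6 from 151186815 to 151423023, and SHMT1 on chromosome 17 from 18231174 to 18266877 (minus strand).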

How the data were processed

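RNA-seq of PC3 MTSs was analysed in 9 libraries, grouped by the sample labels. The authors aligned stranded total RNA reads to human RefSeq transcripts of GRCh37 (hg19) with Bowtie2 within RSEM 1.3.1. They deposited, per gene and transcript, expected counts (estimated reads, not normalized), TPM scaled to 1 total per library, and the percent of a gene's TPM taken by each transcript. The deposited FPKM were not used, and whether counting used strand is not given in the sources used here.

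Genes passing filterByExpr were fitted from rounded expected counts in edgeR 4.0.16 (R 4.3.3) with TMM factors and 1 model of all 3 lines, and quasi-likelihood F tests were adjusted by Benjamini-Hochberg over 17108 genes. A gene rose or fell at an adjusted p under 0.01, and a DEG also had |log2FC| above 1, after the limits of the paper. SEs are |log2FC| over the square root of F. P-values measure the spread between the libraries of a stably transduced line. The procedure was also run on simulated counts with 200 changed genes, against 3346 genes called here in NF-YAl vs Empty. That run does not show how the member calls behave in these data. Alternatives were DESeq2 1.42.0, RLE scaling, other filters, fits of 2 lines, a replicate block, an effective length offset, limma 3.58.1 on log2 TPM, other thresholds and leaving out each library.

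The members, gene lists and tests were chosen with earlier results of these data known. Named genes were the members, NFYA, up to 3 called genes per list and comparison with at least 5 CPM, and the 3 genes most like the members. Markers named are from a list of the same kind. Results for some genes are left out here. Figures were drawn with matplotlib 3.10.9.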

Additional observations from a re-analysis of the deposited data

Results flagged for a closer look

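The 2 transduced lines differed in 3 members by the test of the difference itself (edgeR, NF-YAl minus NF-YAs, n = 3 libraries per line). Isoform and line coincide in this design, so the test compares lines. NFYA was also higher in every NF-YAl library (286.9 to 383.1 CPM) than in any NF-YAs library (254.0 to 264.5 CPM), and its part in these differences was not tested. MTHFD1 differed by a log2FC of −0.59 (adjusted p = 0.00138), PSPH by −0.45 (adjusted p = 0.00497) and PHGDH by −0.43 (adjusted p = 0.00541). In each case the 3 NF-YAl libraries lay below the 3 NF-YAs libraries.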

How the results depend on the processing

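No called value of a member changed direction under any alternative run. Fitting only the 2 lines compared gave 1, 3 and 1 members called (NF-YAl vs Empty, NF-YAs vs Empty and NF-YAl vs NF-YAs), against 3, 1 and 3. Of all genes, that fit called 12.9%, 36.1% and 6.21%, against 19.6%, 22.6% and 10.9%. In NF-YAs vs Empty, DESeq2 gave 2 (27.3% of all genes) and an adjusted p under 0.05 gave 3 (35.5%). Without the filter on low counts PSAT1 lost its call in NF-YAl (adjusted p = 0.0138), leaving 2 members. The added fold limit of |log2FC| above 1 gave 0 in each comparison, as did log2(TPM + 1), log2(TPM + 0.1) and unfiltered log2(TPM + 1) with limma. On log2(TPM + 1) the median of all genes shifted to 0.22, 0.12 and 0.10. Relative to that shift PSAT1, PSPH and SHMT2 in NF-YAl were at −0.32, −0.39 and −0.37, PSAT1 in NF-YAs at −0.70, and PHGDH, PSPH and MTHFD1 between the lines at −0.40, −0.42 and −0.56. Unshifted TPM values of PHGDH, SHMT1, MTHFD1 and, with a pseudocount of 1, MTHFD2 in NF-YAl and of PSPH in NF-YAs, none called, changed sign. Leaving out 1 library gave 0 to 4, 1 to 2 and 0 to 3 members called, with 0 in NF-YAl vs Empty without Empty B and 0 between the lines without NF-YAs C.

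The replicate letters are not stated to pair libraries, and libraries of the same letter were not treated as pairs. Deviations from the line means correlated by −0.07 to 0.25 (mean 0.09) between same-letter libraries of different lines. Between libraries of different letters they correlated by −0.22 to 0.16 (mean −0.03). These overlapping ranges do not settle whether the letters pair libraries. With a replicate block by letter, 4, 2 and 4 members and 24.3%, 31.1% and 16.4% of all genes were called, adding MTHFD2 in NF-YAl (log2FC −0.56, adjusted p = 0.00131), MTHFD1 in NF-YAs (0.34, adjusted p = 0.00969) and SHMT1 between the lines (−0.70, adjusted p = 0.00735). A block by letter gives NF-YAl D, the single library with its letter, a term of its own. That library then adds nothing to the differences between lines. For MTHFD2 the block is therefore not a check separate from leaving out NF-YAl D, which gave a log2FC of −0.55 in NF-YAl. The cause of the changes in MTHFD1 and SHMT1 was not tested. ALDH1L2 had under 100 counts per library.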
